A study of Homo sapiens with 4 samples.

Results

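The mRNA levels of 47 DNA repair and damage checkpoint genes were followed upon knockdown of HMGB1 in IMR90 cells, primary human fibroblasts from fetal lung. The genes were taken from a fixed list of symbols, which was set with earlier results of these data known. Each was matched to 1 row on a primary chromosome among the 63677 genes counted. All 47 were among the 15398 genes that passed the filter on low counts. MRE11A was matched through its current symbol, MRE11.

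PolyA RNA was sequenced in 4 libraries, 2 from control cells and 2 from HMGB1 knockdown cells. The cells were 2 IMR90 isolates, I90-10 and I90-79, both at passage 5 and without any engineered allele. Each isolate gave 1 control library, transfected with a non-targeting siRNA (NTC), and 1 knockdown library, transfected with siRNA against HMGB1, in both cases with RNAiMAX for 72 h. A pair of different HMGB1 siRNAs was used in IMR90, and which of them each library received is not given in the sources used here. With 2 libraries per group an exact permutation test of 1 gene cannot give a two-sided p below 0.333, so tests came from a fit over all genes.

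DNA is repaired by pathways that recognise different kinds of damage. Double-strand breaks are sensed by the MRE11-RAD50-NBN complex and the kinase ATM, and are then either copied back from a sister chromatid by homologous recombination or religated directly by non-homologous end joining. Single damaged bases are cut out by base excision repair, replication errors by mismatch repair, bulky lesions by nucleotide excision repair, and crosslinks between strands by the Fanconi anaemia pathway. Fibroblasts of low passage still divide, and many recombination and Fanconi genes are transcribed mainly in S phase. HMGB1 is an abundant chromatin protein that bends DNA.

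The knockdown was checked on its target first. HMGB1 stood at 181 and 237 CPM (read counts normalised to library size and composition) in the I90-10 and I90-79 control libraries and at 16.0 and 18.9 CPM in the knockdown libraries, so the groups were far apart. Its log2-fold change was −3.59 with a standard error (SE) of 0.19, and its adjusted p was 0.00751 in edgeR's quasi-likelihood test with Benjamini-Hochberg adjustment over all genes tested. Other loci, most of them processed copies of HMGB1, share 24.6% of the 50-base pieces cut from its transcripts. The total count per library ran from 29861687 to 35317010. All 15 fibroblast markers passed the count filter, with a summed level of 25780 to 46422 CPM (here per library total), and none of 8 immune markers did, with 0.322 to 0.435 CPM. Epithelial markers summed to at most 3.60 CPM, whereas endothelial markers reached 132 to 157 CPM, nearly all of it from TEK, and endothelial markers summed lower in the knockdown (132 to 137 CPM) than in the control libraries (148 to 157 CPM). TEK itself had a log2-fold change of −0.17 and was not called, whereas VWF of the same list, at 1.36 and 0.923 CPM in control and 4.16 and 2.59 CPM in knockdown libraries, rose with the isolate as a block (log2-fold change 1.55, edgeR adjusted p = 0.00357). Their part in the results was not tested.

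Sequences are shown for the 3′ UTR word GCAGTT, because across the transcriptome the genes that hold it stood lower upon knockdown than those that lack it. The word was searched on the mRNA strand of the canonical transcripts of GENCODE annotation lifted to hg19, in 3′ UTRs of at least 100 bases. Of 12359 genes with such a UTR, 4477 hold it (36.2%), against 14 of 44 repair genes (31.8%). The windows below are 30 bases long, written 5′ to 3′ along the mRNA with the word in capitals. The first group comes from genes whose control and knockdown libraries did not overlap and whose knockdown levels were the lower ones.
BARD1 site 1, chr2:215591514-215591543, minus strand: cctgactgttaaGCAGTTtcatctttgctt
BARD1 site 2, chr2:215591479-215591508, minus strand: aaatatttgacaGCAGTTagtttgtgttaa
LIG3, chr17:33331806-33331835, plus strand: ataaaatatcttGCAGTTatctttgtcctt
ERCC4 site 1, chr16:14042352-14042381, plus strand: tctctgaactctGCAGTTaggcatcacttg
ERCC4 site 2, chr16:14043575-14043604, plus strand: cagcatctttgtGCAGTTtttaaactttta
ERCC4 site 3, chr16:14043907-14043936, plus strand: tgctgggttcaaGCAGTTctcccacctcag
ERCC4 site 4, chr16:14045056-14045085, plus strand: ctagagatgcatGCAGTTgcaaaattaatg
RAD52 site 1, chr12:1022380-1022409, minus strand: tgagagcccactGCAGTTagagctgagcac

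The word is also present in genes whose knockdown libraries stood above both controls, and 3 of these are shown as the counterpart. NBN, which also holds 1 copy inside the counted exons and rose with the block, belongs to them, and its window is not printed. With NBN, the genes on this side that hold the word are as many as those of the first group. The number of windows printed per group is therefore no measure of a link between the word and the direction of change. For TP53BP1 the UTR of the newer annotation reaches past the end of the gene in the annotation used for counting.
ERCC1, chr19:45912545-45912574, minus strand: gtccctcccctgGCAGTTcaggctctagtg
RNF8, chr6:37360523-37360552, plus strand: taaaacaatgctGCAGTTaacacccttgta
TP53BP1 site 1, chr15:43698862-43698891, minus strand: caatagctggaaGCAGTTccttcccttcct
TP53BP1 site 2, chr15:43697811-43697840, minus strand: tggtaacatccaGCAGTTagtctatttata

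Upon HMGB1 knockdown the 47 genes lay on both sides of 0. A gene was called where its log2-fold change exceeded 0.6 in size at an adjusted p below 0.01. None of the 47 was called in edgeR, beside 0.201% of all genes tested (0.0649% up and 0.136% down). DESeq2 called 2 higher, LIG4 and MSH6, and 2 lower, LIG3 and PMS2, beside 5.24% and 5.88% of the 13905 genes to which it gave an adjusted p. An unadjusted p below 0.05 was reached by 13 of 47 (6 higher and 7 lower in the knockdown), or 27.7%, beside 28.3% of all genes. Knockdown levels lay above both controls in 14 genes (29.8%) and below both in 11 (23.4%), beside 29.8% and 30.2% of all genes, and the groups overlapped in 22. The log2-fold change was above 0 for 31 genes and below 0 for 16, where 49.6% of all genes were above 0 and 50.4% below. Its median was 0.12 over the repair genes and −0.0054 over all genes. In bulk RNA, fewer cells of a type and less RNA per cell cannot be told apart.

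Control and knockdown libraries of the same isolate share a source. Once the edgeR fit held the isolate as a replicate block, 8 of the 47 genes were called (17.02%), beside 14.5% of all genes. LIG4, MSH6, NBN and FANCD2 rose in that fit (6.68% of all genes were called up) and BARD1, PMS2, LIG3 and RAD51C fell (7.84% called down). Of these 8, LIG4, MSH6, LIG3 and PMS2 also had an adjusted p below 0.05 without the block, which 3.94% of all genes reached upwards and 4.5% downwards. RAD51C and FANCD2 were called only with edgeR's block among the fits run. The 4 genes that rose and the 4 that fell come from 6 of the 7 repair classes, and only mismatch repair holds one of each.

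**Figure D1:**
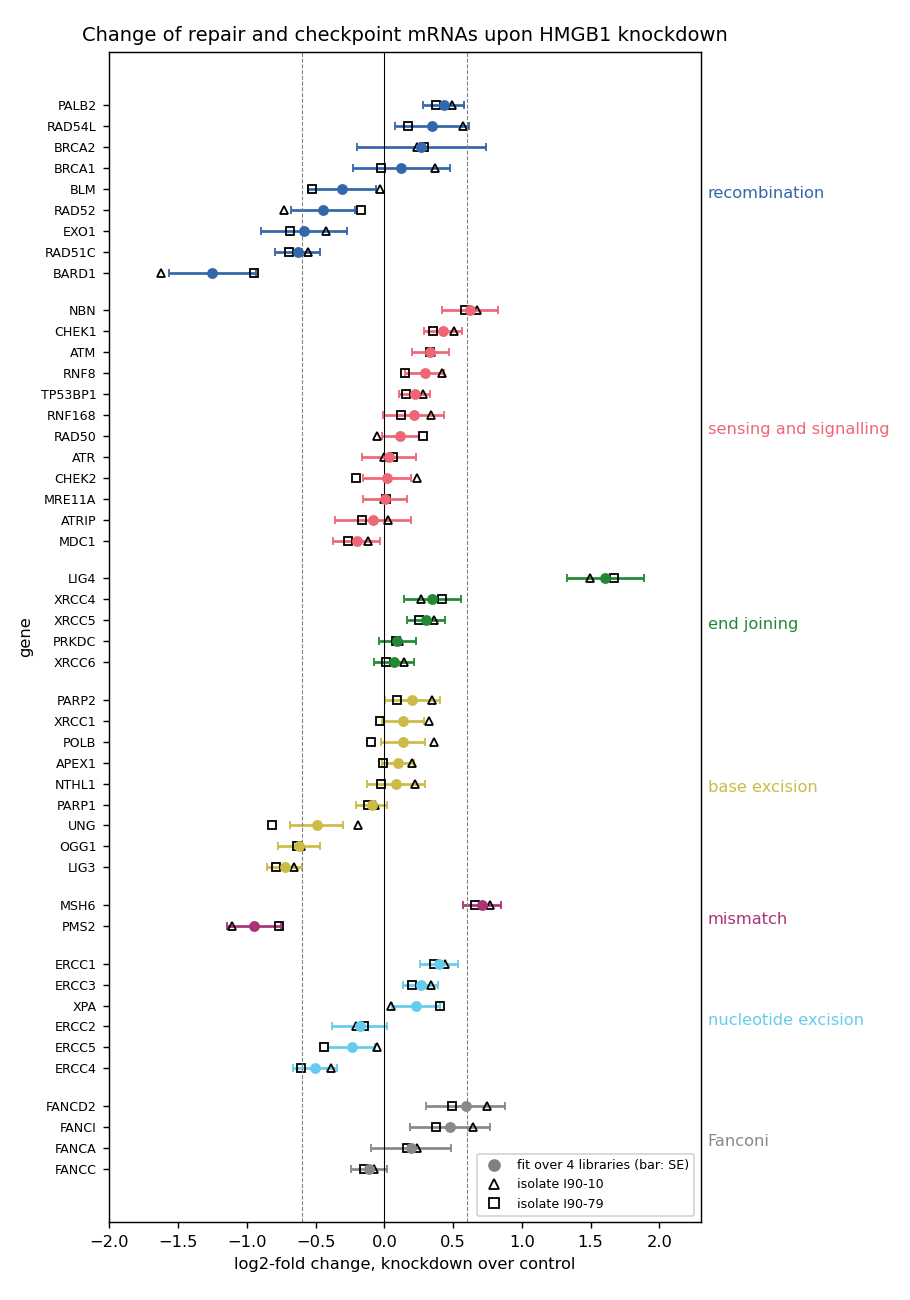
Log2-fold change of each of the 47 genes (x axis, knockdown over control), grouped and coloured by repair class (y axis), with the fitted value and its SE (bars, n = 2 per group) and the separate differences within I90-10 (triangles) and I90-79 (squares). Dashed lines mark ±0.6. LIG4 at 1.61 and BARD1 at −1.25 lie farthest out, and most genes lie between the dashed lines.

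Homologous recombination genes gave the lowest class median, −0.31, with 4 of 9 above 0, 5 below, 2 that fell with the block and 0 that rose. BARD1, the partner that BRCA1 needs as a stable ubiquitin ligase, lies on chromosome 2 from 215590370 to 215674428 on the minus strand (hg19). It stood at 6.43 and 6.92 CPM in the control libraries and at 2.04 and 3.55 CPM in the knockdown libraries, from 59 to 255 reads per library. The knockdown libraries were both lower, the I90-10 one most of all. The fitted log2-fold change was −1.25 (SE 0.32, edgeR adjusted p = 0.0736), and −1.28 with the block, where it fell (adjusted p = 0.00436). BARD1 carries 2 of the UTR sites printed above, both inside the exons that were counted.

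RAD51C, whose product acts in strand exchange, lies on chromosome 17 from 56769934 to 56811703 (hg19). Its levels were 15.4 and 17.8 CPM in control and 10.5 and 11.0 CPM in knockdown libraries, again without overlap. The log2-fold change was −0.63 (SE 0.16, edgeR adjusted p = 0.0742), with a fall under the block (adjusted p = 0.00964), and its UTR of 1389 bases holds no copy of the word. PALB2, the bridge between BRCA1 and BRCA2, stood the other way, at 12.2 and 13.7 CPM in control and 17.1 and 17.7 CPM in knockdown libraries. Both of its knockdown libraries were above both controls, yet its log2-fold change of 0.43 (SE 0.15) missed the threshold without the block (edgeR adjusted p = 0.138) and with it (0.0360).

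The other recombination genes did not pass either fit. BRCA1 and BRCA2 themselves had log2-fold changes of 0.12 (SE 0.35) and 0.27 (SE 0.47), the 2 largest standard errors of the 47 genes. EXO1, the exonuclease that lengthens resected ends, was at −0.58, RAD52, which anneals single strands, at −0.45, the helicase gene BLM at −0.31 and the translocase gene RAD54L at 0.35. The class median depended on where shared genes are counted, since it became 0.12 when MRE11A, RAD50 and NBN were placed here and EXO1 under mismatch repair. It was 0.0032 without control replicate 2, the I90-79 control library.

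Break sensing and signalling genes lay mostly above 0, 10 of 12, with a median of 0.17 and no value below −0.20. The class median was 0.26 in I90-10 and 0.13 in I90-79. Only 7 of the 12 had the same sign in both isolates (58.3%), beside 78.3% of all genes. NBN, the subunit that brings ATM to the break, was the 1 member called with the block, where it rose (log2-fold change 0.63, edgeR adjusted p = 0.00216). It stood at 43.6 and 59.3 CPM in control and 69.4 and 88.9 CPM in knockdown libraries, higher in the knockdown library of each isolate. Without the block its log2-fold change was 0.62 (SE 0.20, adjusted p = 0.124). Its partners in the complex, RAD50 and MRE11A, were at 0.12 (SE 0.13) and 0.0046 (SE 0.16), and the levels of MRE11A were 17.1 and 19.7 CPM in control and 17.1 and 19.8 CPM in knockdown libraries.

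CHEK1, the effector kinase of the replication checkpoint, stood at 20.1 and 23.3 CPM in control and 28.5 and 29.9 CPM in knockdown libraries. These did not overlap, but the log2-fold change of 0.43 (SE 0.14) was not called (edgeR adjusted p = 0.122, and 0.0206 with the block). ATM, the kinase that answers double-strand breaks, was at 51.6 and 59.2 CPM in control and 65.3 and 74.5 CPM in knockdown libraries, a log2-fold change of 0.34 (SE 0.13, edgeR adjusted p = 0.179). ATR and its partner ATRIP, which answer stalled forks, were at 0.03 and −0.09. The chromatin arm of the response, RNF8, RNF168 and TP53BP1, was at 0.29, 0.22 and 0.22, while the scaffold gene MDC1 was at −0.20. CHEK2, the effector kinase downstream of ATM, was at 0.02, with a value of 0.24 in I90-10 and −0.21 in I90-79.

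End joining genes all lay above 0, with a median of 0.31. LIG4, the ligase that seals the joined ends, showed the largest change of the 47 genes and lies on chromosome 13 from 108859787 to 108870716 on the minus strand (hg19). It stood at 9.67 and 13.4 CPM in the control libraries and at 27.4 and 43.0 CPM in the knockdown libraries, so that even the lower knockdown library exceeded both controls. Its fitted fold was 3.04, with mean levels of 35.2 ± 11.0 CPM in knockdown and 11.6 ± 2.66 CPM in control libraries (SD, n = 2). The log2-fold change was 1.61 (SE 0.28, edgeR adjusted p = 0.0355), and with the block it rose by 1.59 (adjusted p = 8.99e-05). No other gene overlaps its exons, and its UTR of 1091 bases holds no copy of the word.

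XRCC4, the scaffold that holds LIG4, did not follow it in size. It was at 6.50 and 7.30 CPM in control and 7.83 and 9.77 CPM in knockdown libraries, a log2-fold change of 0.35 (SE 0.21, edgeR adjusted p = 0.322). XRCC5, which encodes the Ku80 subunit of the ring that grips broken ends, was at 514 and 582 CPM in control and 660 and 694 CPM in knockdown libraries. These groups did not overlap, but the log2-fold change of 0.31 (SE 0.14) was not called (edgeR adjusted p = 0.222, and 0.0409 with the block). XRCC6, for Ku70, and PRKDC, for the kinase that Ku recruits, were at 0.07 and 0.09, with overlapping groups.

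**Figure D2:**
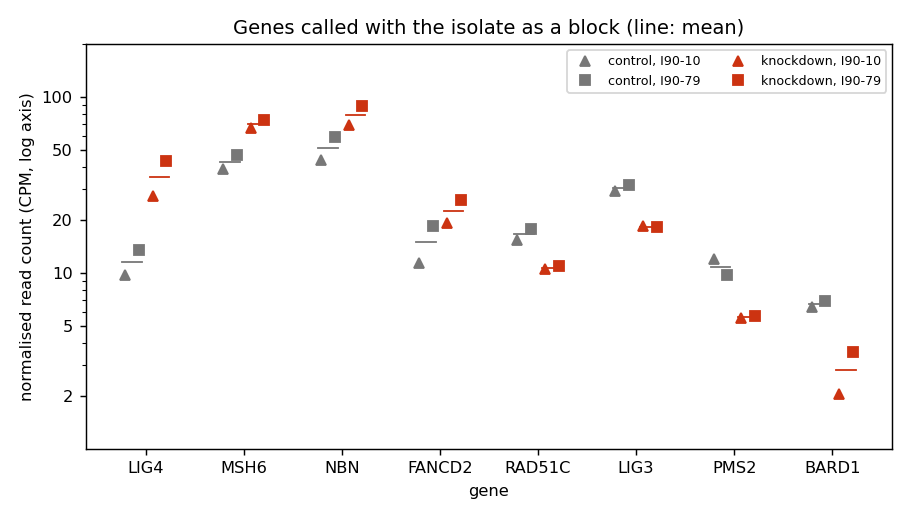
Normalised read counts (y axis, CPM, log axis) in each of the 4 libraries for the 8 genes called with the isolate as a block (x axis). Grey symbols are control and red symbols knockdown libraries, triangles I90-10 and squares I90-79, and short lines are group means (n = 2). The 4 genes on the left have both knockdown libraries above both controls, from LIG4 with 27.4 and 43.0 CPM against 9.67 and 13.4, and the 4 on the right have both below.

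Base excision repair genes had a median of 0.09, with 5 of 9 above 0 and 4 below, and 1 fell with the block. The class median was 0.20 in I90-10 and −0.10 in I90-79. Only 5 of the 9 had the same sign in both isolates (55.6%), beside 78.3% of all genes. LIG3, the ligase that seals nicks together with XRCC1 and the only DNA ligase of mitochondria, lies on chromosome 17 from 33307513 to 33332083 on the plus strand (hg19). It stood at 29.0 and 31.6 CPM in control and at 18.4 and 18.3 CPM in knockdown libraries, with the knockdown libraries close together and well below the controls. The log2-fold change of LIG3 was −0.72 (SE 0.13, edgeR adjusted p = 0.0357), and it fell with the block (adjusted p = 0.00213). The single UTR site of LIG3 printed above lies inside the counted exons.

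The 2 glycosylase genes with the smallest p, which encode the enzymes that remove a damaged base, stood lower too but were not called. OGG1, which removes oxidised guanine, was at 15.7 and 15.0 CPM in control and 10.3 and 9.67 CPM in knockdown libraries, without overlap. Its log2-fold change of −0.62 (SE 0.15, edgeR adjusted p = 0.0694) just missed the threshold with the block (0.0105), and 29.0% of its exonic bases overlap genes on the opposite strand. UNG, which removes uracil, was at 24.9 and 28.1 CPM in control and 21.8 and 15.9 CPM in knockdown libraries. The fit gave a log2-fold change of −0.49 (SE 0.19, edgeR adjusted p = 0.173), with −0.19 in I90-10 and −0.82 in I90-79. The third glycosylase gene, NTHL1, was at 0.09.

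The other 5 base excision genes had values between −0.09 and 0.20. APEX1, the endonuclease that cuts at the empty site, was at 0.10, the gap-filling polymerase gene POLB at 0.13 and the scaffold gene XRCC1 at 0.14. PARP1 and PARP2, which signal strand breaks, were at −0.09 and 0.20. None of the 5 had an unadjusted p below 0.05 in edgeR.

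Mismatch repair was represented by 2 genes that were called in opposite directions with the block. MSH6, the subunit of the MutSα sensor that recognises single mismatches, lies on chromosome 2 from 47922669 to 48037240 on the plus strand (hg19). Its levels were 39.2 and 46.5 CPM in control and 66.9 and 73.5 CPM in knockdown libraries. The groups were well apart, with a log2-fold change of 0.71 (SE 0.14, edgeR adjusted p = 0.0426) and a rise with the block (adjusted p = 0.00129). In the counted annotation 16.5% of its exonic bases overlap FBXO11 on the opposite strand, a gene that was at −0.12 (SE 0.12, edgeR adjusted p = 0.560).

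PMS2, the endonuclease subunit of MutLα, lies on chromosome 7 from 6012870 to 6048756 on the minus strand (hg19). It stood at 11.9 and 9.72 CPM in control and 5.51 and 5.70 CPM in knockdown libraries. The knockdown levels were close to each other and below both controls, a log2-fold change of −0.95 (SE 0.20, edgeR adjusted p = 0.0491), and PMS2 fell with the block (adjusted p = 0.00441). PMS2 has near-identical copies, and 29.2% of the 50-base pieces of its transcripts occur at other loci, so its counts are uncertain. The copy PMS2CL was at −0.07 (SE 0.20, edgeR adjusted p = 0.842).

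Nucleotide excision repair genes were balanced, with 3 of 6 above 0 and 3 below, a median of 0.02 and none called in either fit. ERCC1 and ERCC4 encode the 2 subunits of 1 nuclease, which cuts on the 5′ side of the lesion, yet they stood on opposite sides. ERCC1 was at 59.3 and 70.8 CPM in control and 80.6 and 90.9 CPM in knockdown libraries, a log2-fold change of 0.40 (SE 0.14, edgeR adjusted p = 0.141, and 0.0148 with the block). ERCC4 was at 13.3 and 14.6 CPM in control and 10.2 and 9.54 CPM in knockdown libraries, a log2-fold change of −0.50 (SE 0.16, edgeR adjusted p = 0.116, and 0.0311 with the block). Neither pair of groups overlapped.

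ERCC3, the XPB helicase of TFIIH, was at 57.6 and 67.1 CPM in control and 72.7 and 77.2 CPM in knockdown libraries, a log2-fold change of 0.27 (SE 0.13, edgeR adjusted p = 0.238). The other TFIIH helicase gene, ERCC2, was at −0.18 with overlapping groups. The damage-verifying gene XPA was at 0.23 and ERCC5, the nuclease that cuts on the 3′ side, at −0.24. Overlaps with other genes were common here: 28.6% of the exonic bases of ERCC1, 25.7% of ERCC4 and 41.9% of ERCC5, the last with a read-through gene on the same strand. POLR1G, which overlaps ERCC1 on the opposite strand, had a log2-fold change of 0.40 (SE 0.34, edgeR adjusted p = 0.485). It was at 3.61 and 5.32 CPM in control and 4.50 and 7.27 CPM in knockdown libraries, and its part in the value of ERCC1 was not tested. The strand setting of the counting is not given in the sources used here.

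Fanconi anaemia genes had a median of 0.34, with 3 of 4 above 0. FANCD2 and FANCI encode the 2 proteins that are ubiquitinated together at a crosslink. FANCD2, on chromosome 3 from 10068098 to 10143614 on the plus strand (hg19), was at 11.4 and 18.6 CPM in control and 19.1 and 26.1 CPM in knockdown libraries. The lower knockdown library barely exceeded the higher control, since I90-79 stood above I90-10 in both groups. Its log2-fold change was 0.59 (SE 0.29, edgeR adjusted p = 0.244), and with the block it rose by 0.61 (adjusted p = 0.00829).

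FANCI was at 27.9 and 46.8 CPM in control and 43.6 and 60.6 CPM in knockdown libraries, and here the groups overlapped. Its log2-fold change was 0.48 (SE 0.29, edgeR adjusted p = 0.334), and with the block 0.51 at an adjusted p of 0.00996, short of the fold threshold. FANCA, of the core ligase complex, was at 0.19. FANCC, of the same complex, was at 21.8 and 21.2 CPM in control and 20.7 and 19.1 CPM in knockdown libraries, a log2-fold change of −0.11 (SE 0.13, edgeR adjusted p = 0.626).

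Levels of different genes were compared per length of counted exons (RPKM). End joining genes held the top of the range in control cells, with XRCC6 at 129 and XRCC5 at 100.3 RPKM, followed by APEX1 at 94.1, PARP1 at 27.4, PRKDC at 19.7 and TP53BP1 at 17.4 RPKM. At the bottom were BRCA2 at 0.695 and BARD1 at 1.10 RPKM, and LIG4 stood at 2.62 RPKM. Upon knockdown LIG4 was at 7.98 RPKM, above XRCC4 at 3.29 RPKM, beside which it had stood in control cells (2.58 RPKM for XRCC4). BARD1, at 0.462 RPKM, was the lowest of the 47 in the knockdown libraries.

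**Figure D3:**
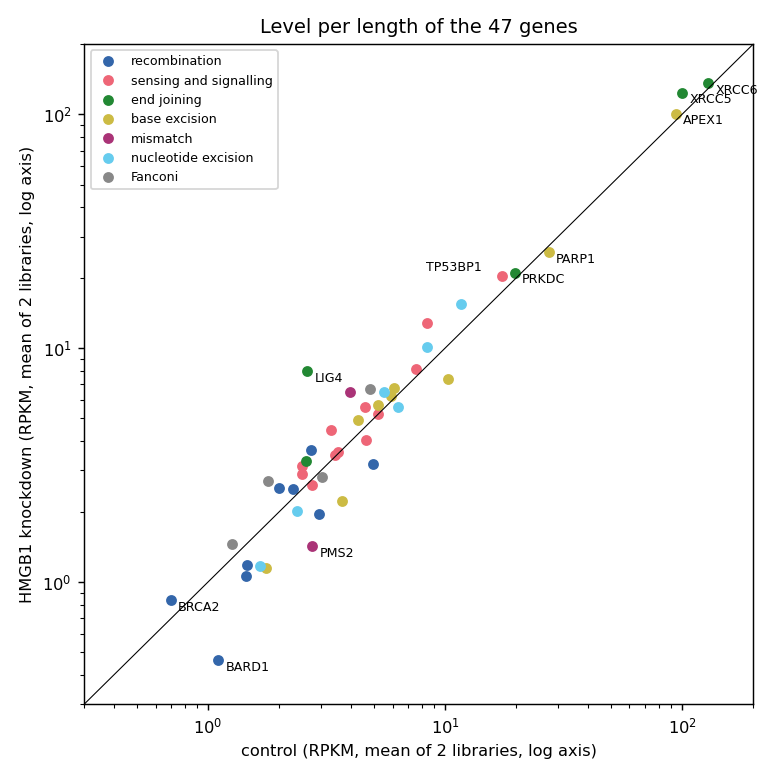
Mean level per length of each of the 47 genes in control (x axis) and knockdown libraries (y axis), both in RPKM on log axes (n = 2 each), coloured by repair class. The line marks equal levels. XRCC6, XRCC5 and APEX1 lie at the upper end near the line, LIG4 lies above it at 2.62 and 7.98 RPKM, and BARD1 below it at 1.10 and 0.462 RPKM.

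The isolates differed in many of these genes. In both groups 30 of 47 genes (63.8%) were higher in I90-79 than in I90-10, beside 33.5% of all genes tested. The difference between isolates was largest for BRCA2, at 5.21 and 6.16 CPM in the control and knockdown libraries of I90-10 and 10.4 and 12.7 CPM in those of I90-79. This mean isolate difference of 1.01 on the log2 scale exceeded its knockdown change, as in 18 of 47 genes (38.3%, beside 33.5% of all genes). BRCA1 (0.73), FANCI (0.61), EXO1 (0.60), FANCA (0.59) and FANCD2 (0.57) came next, and ERCC2 had the lowest value (−0.38). By class, 8 of 9 recombination genes and all 5 end joining genes were higher in I90-79 in both groups, against 3 of 9 base excision genes and 2 of 6 nucleotide excision genes. Each isolate gave 1 library per group, so these differences were not tested.

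**Figure D4:**
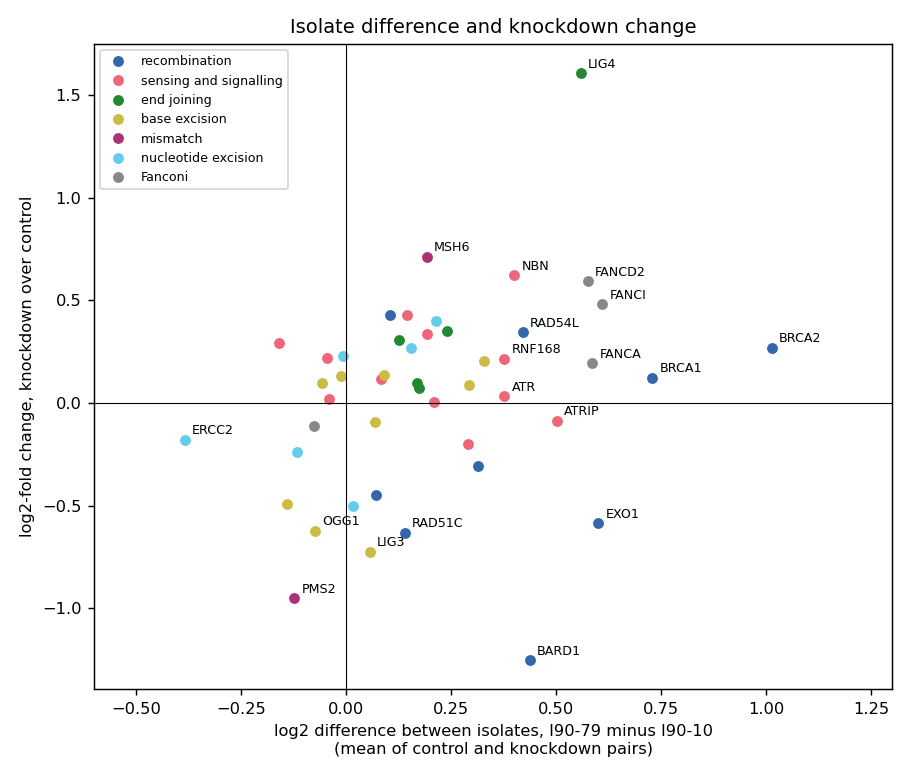
Mean log2 difference between the isolates (x axis, I90-79 minus I90-10, averaged over the control and knockdown pairs) and log2-fold change upon knockdown (y axis) for each of the 47 genes, coloured by repair class. BRCA2 lies farthest right at 1.01 with a knockdown change of 0.27, and most points lie right of the vertical line.

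Genes of DNA replication and mitosis differed in the same way between isolates. A list of 37 tested S phase genes summed to 777 and 1285 CPM in the control and 1142 and 1426 CPM in the knockdown libraries, and 34 of them were higher in I90-79 in both groups. A list of 36 mitosis genes summed to 1470 and 2590 CPM in the control and 1776 and 2232 CPM in the knockdown libraries. The S phase sum was thus higher upon knockdown in both isolates, whereas the mitosis sum was higher in I90-10 and lower in I90-79. The S phase genes had a median log2-fold change of 0.27 (0.51 in I90-10 and 0.08 in I90-79). With the block 4 of 37 rose (GINS1, MCM7, ORC6 and TYMS) and 0 fell. This was 10.8% in all, beside 14.5% of all genes (6.68% up and 7.84% down). For the mitosis genes the median was 0.02, 0.42 in I90-10 and −0.26 in I90-79. The repair genes had a median of 0.23 in I90-10 and 0.01 in I90-79, and the part of proliferation in their values was not tested.

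Knockdown differences had the same sign in both isolates for 37 of 47 repair genes (78.7%), beside 78.3% of all genes. All 8 genes called with the block did so, but that fit favours differences that repeat in both isolates, so this is no separate support. LIG4 was at 1.50 and 1.67 in I90-10 and I90-79, MSH6 at 0.77 and 0.66, NBN at 0.67 and 0.58 and FANCD2 at 0.75 and 0.49. BARD1 was at −1.63 and −0.95, PMS2 at −1.11 and −0.76, LIG3 at −0.66 and −0.79 and RAD51C at −0.55 and −0.69.

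The word GCAGTT is present in some of the genes that stood lower and absent from others. Over all genes with a 3′ UTR the median log2-fold change was 0.07 without the word, −0.10 with 1 copy and −0.26 with 2 or more. With the block 4.09% of genes without it were called down beside 23.8% of those with 2 or more. The word was chosen because genes that hold it stood lower in these same data, so these values are no separate support. UTR length was not taken into account. Of the repair genes that fell with the block, BARD1 holds 2 copies and LIG3 holds 1, and PMS2 and RAD51C hold 0. Among those that rose, NBN holds 1 copy, LIG4 and FANCD2 hold 0, and MSH6 has no 3′ UTR of at least 100 bases in the canonical transcript. The repair genes had a median of 0.12 without the word (30 genes), 0.17 with 1 copy (8 genes) and −0.22 with 2 or more (6 genes).

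Not all sites lie in sequence that was counted. The copies of TP53BP1, MRE11A and RAD50, 2 each, and 1 of the 2 of RAD52 lie outside the exons of the annotation used for counting. With only the copies inside counted exons considered, a choice made after seeing the data, 11 repair genes held the word. Their median was −0.18, the value of ERCC2, and 54.5% of them were below 0. The 4060 genes that held it in the same way had a median of −0.18, with 63.6% below 0. The median was 0.07 for the 8299 that did not hold it. The 33 repair genes without such a copy had a median of 0.12. ERCC4 with 4 copies (−0.50) and BARD1 with 2 (−1.25) were the 2 repair genes with 2 or more. This is a description of letters in the UTR, and its part in the values was not tested.

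**Figure D5:**
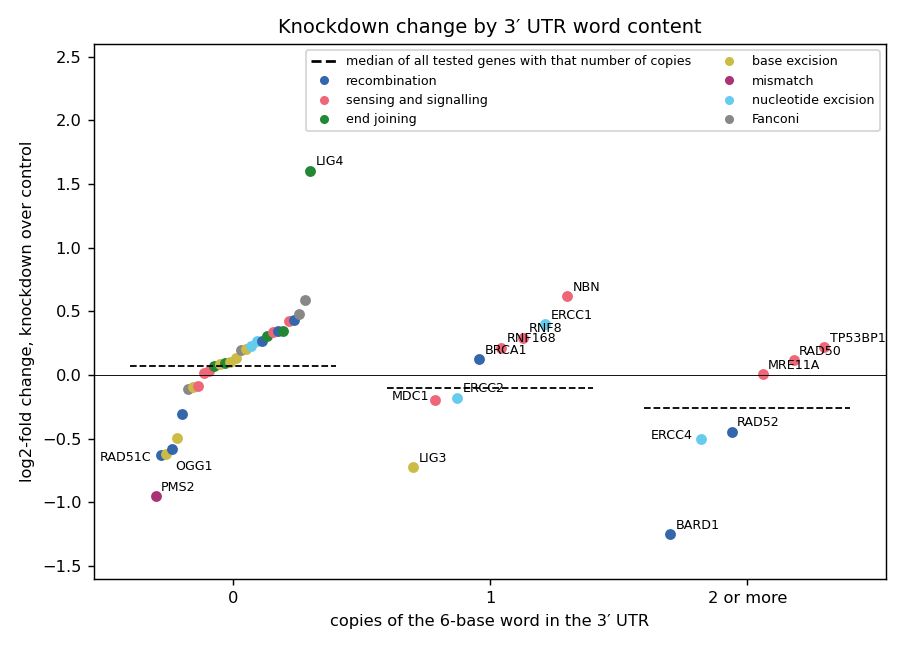
Log2-fold change upon knockdown (y axis) of the 44 repair genes with a 3′ UTR of at least 100 bases, by number of copies of the word (x axis, points spread sideways within a bin) and coloured by repair class. Dashed lines are the medians of all tested genes with that number of copies, 0.07, −0.10 and −0.26. BARD1, ERCC4 and RAD52 lie below the line of the bin with 2 or more copies, and MRE11A, RAD50 and TP53BP1, whose copies lie outside the counted exons, lie above it.

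Other genes of these pathways were taken from lists by repair class. Of 118 listed, 116 were tested, 57 above 0 and 59 below, with a median of −0.0059. None was called in edgeR without the block, beside 0.201% of all genes. An unadjusted p below 0.05 was reached by 25 (21.6%), 10 higher and 15 lower, beside 28.3% of all genes (13.6% higher and 14.7% lower). DESeq2 gave 114 of them an adjusted p and called 0 higher and 5 lower, beside 5.24% and 5.88% of all genes with one. With the block 1 rose, TIMELESS, and 6 fell, PCNA, DDB1, ERCC8, DDB2, UIMC1 and NABP2, or 6.03% in all beside 14.5% of all genes.

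The 2 largest of these changes were those of DDB1 and ERCC8, both of damage recognition for nucleotide excision repair. DDB1, the adaptor of the ubiquitin ligase that finds ultraviolet lesions, was at 361 and 345 CPM in control and 123 and 119 CPM in knockdown libraries. For DDB1 the log2-fold change was −1.55 (SE 0.12, edgeR adjusted p = 0.0104), and it fell with the block (adjusted p = 4.87e-05). ERCC8, the substrate receptor that binds DDB1 in transcription-coupled repair, was at −1.25 (SE 0.23, edgeR adjusted p = 0.0391), and DDB2, its counterpart in global repair, at −0.67. Their 3′ UTRs hold 1, 3 and 1 copies of the word in the order DDB1, ERCC8 and DDB2.

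PCNA, the sliding clamp shared by replication, mismatch and excision repair, was at 90.1 and 121 CPM in control and 51.7 and 53.5 CPM in knockdown libraries. Its log2-fold change of −1.01 (SE 0.17, edgeR adjusted p = 0.0320) ran against that of the S phase list, and its UTR holds 1 copy. MSH3, which recognises larger loops in mismatch repair, was at −0.55, opposite to MSH6. UIMC1, which brings the BRCA1-A complex to ubiquitinated chromatin, was at −0.75 (edgeR adjusted p = 0.0296) and NABP2, a single-strand binding protein, at −0.73. In the remaining classes the 2 genes with the smallest p were the glycosylases TDG (0.60) and MBD4 (0.53), POLM (0.48) and TDP2 (0.58) of end joining, the Fanconi genes FANCL (0.63) and FANCE (−0.47), and MUS81 (−0.52) and RPA2 (0.47) of recombination. None of these 8 was called in either fit. TDG and POLM hold 2 copies of the word each and TDP2 holds 1, whereas MBD4, FANCL, FANCE, MUS81 and RPA2 hold 0. UIMC1 and MSH3 hold 1 copy each and NABP2 holds 2, and TIMELESS, which rose with the block, holds 0.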

How the data were processed

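PolyA RNA of 2 control and 2 HMGB1 knockdown libraries of IMR90 was sequenced. Per the labels and the methods, the authors prepared TruSeq libraries, mapped paired-end reads to hg19 with STAR and deposited raw counts per gene from featureCounts. Versions, strand setting and whether pairs or single reads were counted are not given in the sources used here. The authors' table of fold changes was not used. Groups came from the labels, and replicate numbers 1 and 2 are the isolates I90-10 and I90-79. Deviations of same-numbered libraries correlated at 0.46 over 15398 genes.

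Counts were filtered with filterByExpr, scaled by TMM and tested with the quasi-likelihood test of edgeR 4.0.16 (R 4.3.3, limma 3.58.1), once without a block and once with the isolate as block. p-values were adjusted by Benjamini-Hochberg over all genes. Calls needed a log2-fold change beyond ±0.6 and an adjusted p below 0.01. Knockdown differences within an isolate used log2 CPM with a prior count of 2. Differences between the isolates used log2 of CPM with a smaller added constant. DESeq2 1.42.0, alone, with the block and after RUVs with 1 factor, other scalings, filters and thresholds, and leaving out each library were alternatives. The RUVs factor came from a re-implementation of that method on log counts not scaled for depth, not from the package the authors used. The script was tested on simulated counts with a common spread and no difference between isolates. That test therefore cannot show how the blocked fit behaves where isolates differ. All 47 genes were mapped and tested. Of the other lists, PECAM1, UHRF1 and 2 Fanconi-associated symbols were not mapped.

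Values in every library are given for genes called in either fit or among the 3 smallest p of their class, and, chosen after their values were seen, for BRCA2 and MRE11A. The remaining members are named with their log2-fold change. Of the other repair genes, those called with the block and the 2 smallest p of each class are named. Members, lists, classes and the word GCAGTT were chosen with earlier results of these data known. UTRs came from GENCODE v44 lifted to hg19. Nothing states that the libraries of a group came from separate cultures beyond the isolates, so p-values measure the spread between these libraries.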

Additional observations from a re-analysis of the deposited data

Results flagged for a closer look

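CHEK2 was the 1 repair gene whose knockdown differences went in opposite directions in the isolates with both beyond 0.2 on the log2 scale, 0.24 in I90-10 and −0.21 in I90-79. With 1 library per isolate and group this difference was not tested, and 5.36% of all genes tested met the same rule. In total 10 of the 47 genes had opposite signs in the isolates.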

How the results depend on the processing

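The number of repair genes called depended on how the isolates and the spread were modelled. Against 0 higher and 0 lower, the counts were 4 and 4 with edgeR's replicate block by isolate, 3 and 3 with the block in DESeq2 and with no filter on low counts, and 2 and 2 with DESeq2 alone, with RUVs and with an adjusted p below 0.05. They were 0 and 0 with the other scalings, the stricter filter, no fold threshold and each library left out. Of all genes, 1028 rose and 1207 fell with the block, 967 and 1091 with DESeq2 and the block, 728 and 818 with DESeq2, 877 and 939 with RUVs, 1111 and 1263 without filter, 575 and 668 at an adjusted p below 0.05, 31 and 98 on library totals, and 6 rose at a minimum of 10 counts. Leaving out 1 library gave 0 to 182 and 0 to 221, with 0 and 0 without either knockdown library. LIG4, MSH6 and LIG3 were called in all 5 fits that called any at an adjusted p below 0.01, PMS2 and BARD1 in 4, NBN in 3, and RAD51C and FANCD2 in 1.

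The adjusted p over all alternatives lay between 5.89e-15 and 0.133 for LIG4, 2.84e-05 and 0.197 for MSH6, 0.000937 and 0.178 for LIG3, 0.00203 and 0.203 for PMS2, 0.000257 and 0.208 for BARD1, 0.000196 and 0.412 for NBN, 0.00964 and 0.257 for RAD51C and 0.00829 and 0.637 for FANCD2. HMGB1 stayed between −3.77 and −3.38 without 1 library, with an adjusted p of up to 0.0675.

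The median over the repair genes was lowest without control replicate 1, at −0.0069, and highest without control replicate 2, at 0.23. Recombination ranged from −0.35 to 0.0032 without 1 library, reached −0.38 with RUVs and was 0.12 under the other class assignment, under which mismatch repair was −0.58. End joining was 0.31 with upper-quartile scaling and without filter, 0.26 on library totals, 0.27 with RUVs and 0.18 to 0.40 without 1 library. Nucleotide excision repair was −0.012 on library totals, 0.082 with RUVs and −0.030 to 0.10 without 1 library, base excision repair −0.11 to 0.12, signalling 0.076 to 0.24, mismatch repair −0.17 to −0.073, and the Fanconi genes 0.18 with RUVs and 0.037 to 0.72.

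The log2-fold change kept its sign under all settings for 33 genes, the 8 called with the block among them. With RUVs it turned to −0.043 for BRCA1, −0.0066 for BRCA2, −0.070 for ATR and −0.050 for MRE11A, on library totals to −0.0075 for ATR, −0.026 for CHEK2 and −0.036 for MRE11A, and at a minimum of 10 counts to −0.0021 for MRE11A. Without 1 library the ranges that crossed 0 were −0.26 to 0.67 for BRCA1, −0.35 to 0.86 for BRCA2, −0.56 to 0.0032 for BLM, −0.19 to 0.22 for ATR, −0.35 to 0.25 for ATRIP, −0.12 to 0.14 for CHEK2, −0.0069 to 0.48 for RNF168, −0.11 to 0.11 for MRE11A, −0.014 to 0.24 for RAD50, −0.040 to 0.20 for XRCC6, −0.0058 to 0.45 for PARP2, −0.11 to 0.31 for NTHL1, −0.37 to 0.042 for ERCC2 and −0.11 to 0.54 for FANCA. The causes were not tested. In all 10 genes share over 10% of exonic bases or 50-base pieces with another gene. They are ATR, ERCC1, ERCC4, ERCC5, FANCA, MSH6, OGG1, PMS2, XRCC1 and XRCC6. Without them, an alternative added after seeing the data, 25 of 37 were above 0 and 3 rose and 3 fell with the block. The lowest counts limit BARD1, with 59 reads in 1 knockdown library.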
